A study of Mus musculus with 24 samples.

Results

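MHC class II antigen presentation was followed through 9 genes, H2-Aa, H2-Ab1, H2-Eb1, Cd74, Ciita, H2-DMa, H2-DMb1, H2-Oa and H2-Ob. Every probe set annotated to 1 of these genes alone was taken, which gave 16 of the 45037 probe sets tested and covered 8 of the 9 genes. H2-Aa had 4 probe sets, H2-Ab1 and Ciita 3 each, H2-DMa 2, and H2-Eb1, Cd74, H2-Oa and H2-Ob 1 each. H2-DMb1 had none of its own, because both probe sets that name it also name H2-DMb2. These probe sets, and 1 shared by H2-Ob and Gm20506, are 3 shared probe sets that were not counted.

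The study profiled lung tumours of mice that carried mutant EGFR, the epidermal growth factor receptor, as a transgene, on Affymetrix mouse arrays. L858R activates the receptor's kinase, and T790M is best known from resistance to kinase inhibitors. The tumours were visible nodules cut from bitransgenic mice kept on doxycycline food for 3 to 6 months, and the labels write the lines as C/L858R, C/L+T and C/T790M without expanding the C or naming the promoter. The groups were 4 L858R tumours, 5 tumours with both changes (L858R+T790M), 5 T790M tumours, 5 normal lungs with the strain label FVB mixed (mixed-strain normals) and 5 normal lungs with the strain label FVB (FVB normals). By strain label, L858R tumours are FVB mixed, whereas L858R+T790M and T790M tumours are FVB. The normal lungs came from littermates with no transgene or 1 of them, also on doxycycline, so all groups had received the drug. The labels give no age or sex, do not name the strain mixed with FVB, and do not state whether arrays of a group come from different mice, so a p-value here reflects the spread among the arrays. The medians of the arrays ran from 7.21 to 7.34 (log2).

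Class II molecules present peptides from the endocytic pathway to CD4 T cells. Their alpha and beta chains, here H2-Aa with H2-Ab1 and the beta chain H2-Eb1, assemble on the invariant chain Cd74, cathepsins degrade that chain, and H2-DM exchanges its last fragment for peptide while H2-O restrains H2-DM. Ciita is the coactivator that switches the set on, and interferon gamma is its best known inducer. In lung the genes are known from dendritic cells, macrophages and B cells, and also from alveolar type 2 cells, the epithelial cells that make surfactant. The H2 class II genes are highly polymorphic between mouse strains.

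Ciita acts through proteins bound at paired promoter elements, the X box and, downstream of it, the Y box, which carries the CCAAT sequence bound by NF-Y. Promoter windows of RefSeq (assembly GRCm38.p6, 250 bases before to 50 after a start listed for the gene, strand of the gene) were available for 6 of the member genes, H2-Aa, H2-Eb1, H2-DMa, H2-DMb1, H2-Oa and H2-Ob. They were searched on the strand of the gene for GCAAC, letters of the X box, followed by TGATTGG, letters of the Y box, with starts 20 to 50 bases apart. The letters were chosen after the windows had been seen. The pair was found in 4 of them, which are shown with the matches in capitals because their genes behave differently in the arrays: H2-Aa (chr17:34287774-34288073, minus strand), H2-Eb1 (chr17:34305617-34305916, plus strand), H2-Oa (chr17:34092129-34092428, plus strand) and H2-Ob (chr17:34238655-34238954, plus strand).
H2-Aa: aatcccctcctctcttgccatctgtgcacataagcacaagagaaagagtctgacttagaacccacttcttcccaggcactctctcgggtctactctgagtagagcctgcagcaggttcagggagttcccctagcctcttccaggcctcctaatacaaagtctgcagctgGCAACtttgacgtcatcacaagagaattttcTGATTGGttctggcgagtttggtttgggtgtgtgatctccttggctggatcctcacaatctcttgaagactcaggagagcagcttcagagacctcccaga
H2-Eb1: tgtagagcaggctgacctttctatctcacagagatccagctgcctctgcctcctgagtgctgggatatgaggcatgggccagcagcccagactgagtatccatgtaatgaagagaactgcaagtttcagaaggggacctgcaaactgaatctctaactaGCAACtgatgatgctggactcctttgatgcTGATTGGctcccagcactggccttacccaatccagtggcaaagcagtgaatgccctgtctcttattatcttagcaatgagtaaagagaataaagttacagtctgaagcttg
H2-Oa: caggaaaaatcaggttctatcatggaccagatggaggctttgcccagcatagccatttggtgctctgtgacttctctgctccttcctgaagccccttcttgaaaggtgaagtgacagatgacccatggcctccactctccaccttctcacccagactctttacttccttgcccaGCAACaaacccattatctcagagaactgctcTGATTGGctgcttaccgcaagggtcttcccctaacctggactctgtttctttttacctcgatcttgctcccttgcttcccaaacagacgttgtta
H2-Ob: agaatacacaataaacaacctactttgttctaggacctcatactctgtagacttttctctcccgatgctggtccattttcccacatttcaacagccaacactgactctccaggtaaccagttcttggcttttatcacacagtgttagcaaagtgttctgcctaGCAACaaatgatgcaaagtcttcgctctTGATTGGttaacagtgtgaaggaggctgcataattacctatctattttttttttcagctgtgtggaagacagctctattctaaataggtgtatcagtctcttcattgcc

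The GCAAC match began 81 bases before the start of H2-Aa, 91 before H2-Eb1, 76 before H2-Oa and 87 before H2-Ob. The TGATTGG match began 50, 61, 45 and 59 bases before the same starts, in the same order. The windows of H2-DMa and H2-DMb1 held no pair at this spacing. Those of H2-DMa began at 34122582 and 34125268 on chromosome 17, past the gene start at 34119693. They do not cover that start, so they do not show whether the pair is present there. Over all 32851 windows, searched on both strands, 98 held the pair (0.298%), while 35.2% held GCAAC and 7.82% held TGATTGG. These shares thus admit matches on the other strand, which the search of the member windows did not. A match describes letters in the window and is not evidence of binding.

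In T790M tumours 10 of the 16 class II probe sets, from 6 of the 8 genes, were higher than in FVB normals and 0 were lower. Probe sets of a gene share their target and are not independent. A probe set was called changed at a Benjamini-Hochberg adjusted p under 0.05 over all probe sets in limma's moderated test. Among all probe sets of this comparison 34.8% were called, 18.5% higher and 16.3% lower. A gene counted when any of its probe sets was called, and H2-Aa entered through 1435290_x_at alone. Read by the brightest probe set, 5 of the 8 genes were higher, beside 21.3% of all genes. The median log2 difference of the 16 member probe sets was 0.68, against -0.01 over all probe sets. In L858R tumours 3 member probe sets were higher and 1 was lower than in mixed-strain normals, beside a background of 37.3% called (20.3% higher, 17.0% lower), with a member median of 0.27 against 0.04. In L858R+T790M tumours 2 were higher and 1 was lower than in FVB normals, beside 30.8% called (16.5% higher, 14.2% lower), with a member median of 0.32 against 0.02. The shares of members called in these last comparisons lay below the background. These are bulk tissues, in which fewer cells of a type and less RNA per cell cannot be told apart.

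**Figure D1:**
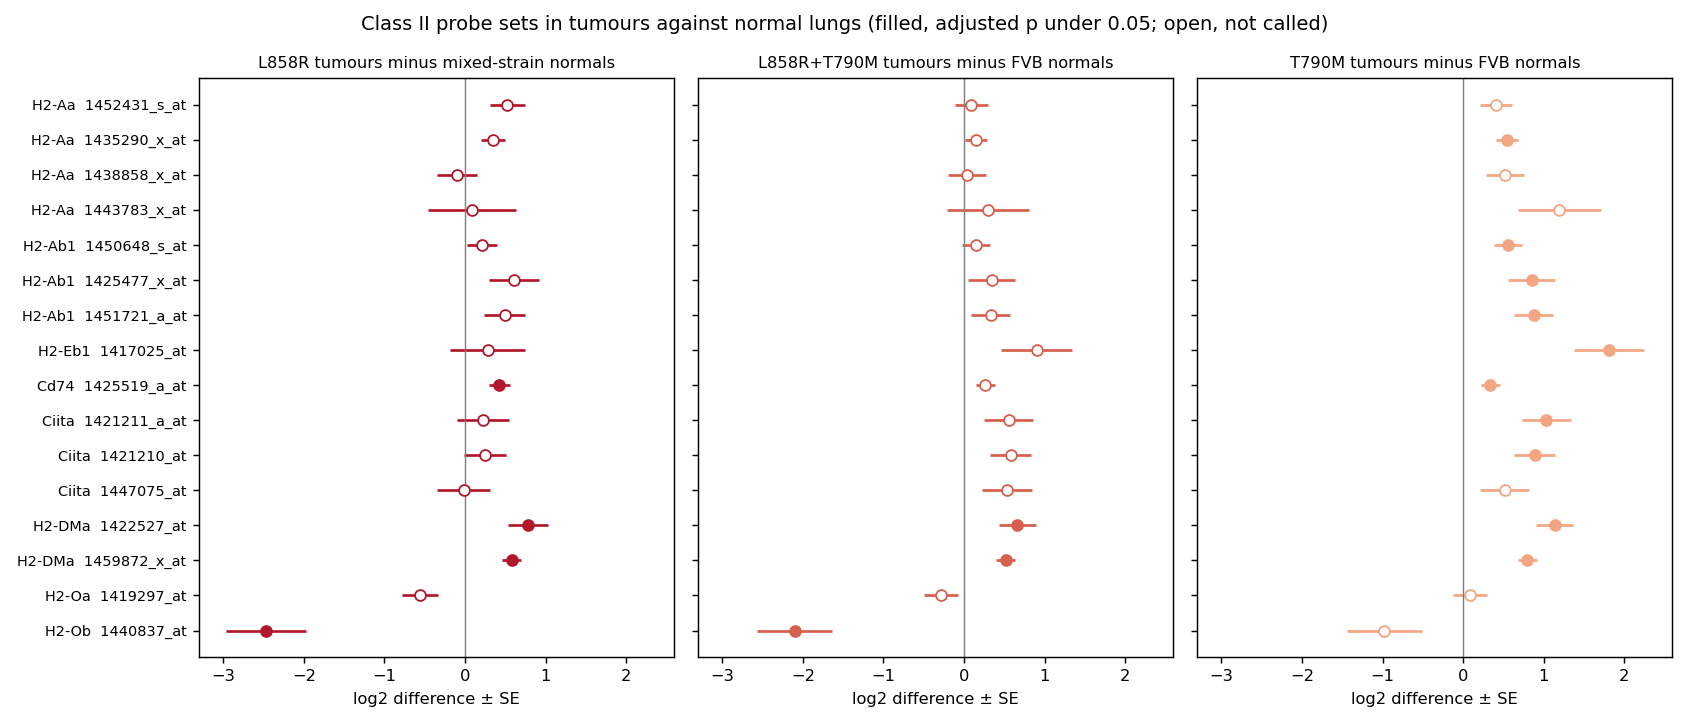
Log2 differences (horizontal axis, with the standard error as a line) of the 16 class II probe sets, 1 row each, in L858R tumours against mixed-strain normals, L858R+T790M tumours against FVB normals and T790M tumours against FVB normals; filled points had an adjusted p under 0.05. T790M tumours have 10 filled points, all above 0, while H2-Ob is the lowest point in every panel.

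The classical chain genes were bright in all groups. H2-Aa probe set 1452431_s_at, the brightest of its gene, read 13.32, 13.47, 13.48 and 13.52 in L858R tumours, against 12.00, 12.58, 13.14, 13.49 and 13.40 in mixed-strain normals. It read 13.34, 12.99, 13.43, 13.58 and 13.39 in L858R+T790M tumours and 13.80, 13.23, 13.75, 13.69 and 13.84 in T790M tumours, against 13.17, 13.15, 13.19, 13.11 and 13.65 in FVB normals. The tumours overlapped their normals in all 3 comparisons. The log2 difference was 0.53 ± 0.22 (SE; adjusted p = 0.0593) in L858R tumours, 0.09 ± 0.20 (0.784) in L858R+T790M tumours and 0.41 ± 0.20 (0.127) in T790M tumours.

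Of the other H2-Aa probe sets, 1435290_x_at was called higher in T790M tumours, where it read 13.53, 13.06, 13.39, 13.48 and 13.54, against 12.74, 12.73, 12.78, 12.71 and 13.30 in FVB normals. Only T790M replicate 2 lay below the highest of these normals, FVB normal replicate 5. The difference was 0.55 ± 0.14 (adjusted p = 0.00329). It was 0.35 ± 0.15 (0.0634) in L858R tumours against their normals, and 0.15 ± 0.14 (0.466) in L858R+T790M tumours against theirs.

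H2-Ab1, the beta chain that pairs with H2-Aa, was called higher in T790M tumours by all 3 of its probe sets. The brightest, 1450648_s_at, read 13.63, 12.67, 13.18, 13.50 and 13.53 in T790M tumours, against 12.51, 12.68, 12.78, 12.64 and 13.11 in FVB normals. T790M replicate 2 stood among the normals and the other 4 tumours above all of them. The differences were 0.56 ± 0.18 (adjusted p = 0.0164) for this probe set, 0.88 ± 0.24 (0.0065) for 1451721_a_at and 0.85 ± 0.29 (0.0281) for 1425477_x_at. The last of these lost its call when FVB normal replicate 1 or 4 or T790M replicate 1, 3, 4 or 5 was left out, with adjusted p between 0.0535 and 0.0719. In L858R tumours the 3 probe sets differed from mixed-strain normals by 0.21 to 0.61, and in L858R+T790M tumours from FVB normals by 0.15 to 0.34, with none called. Without mixed-strain normal replicate 4, 1425477_x_at was called in L858R tumours (0.84, adjusted p = 0.0347).

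**Figure D2:**
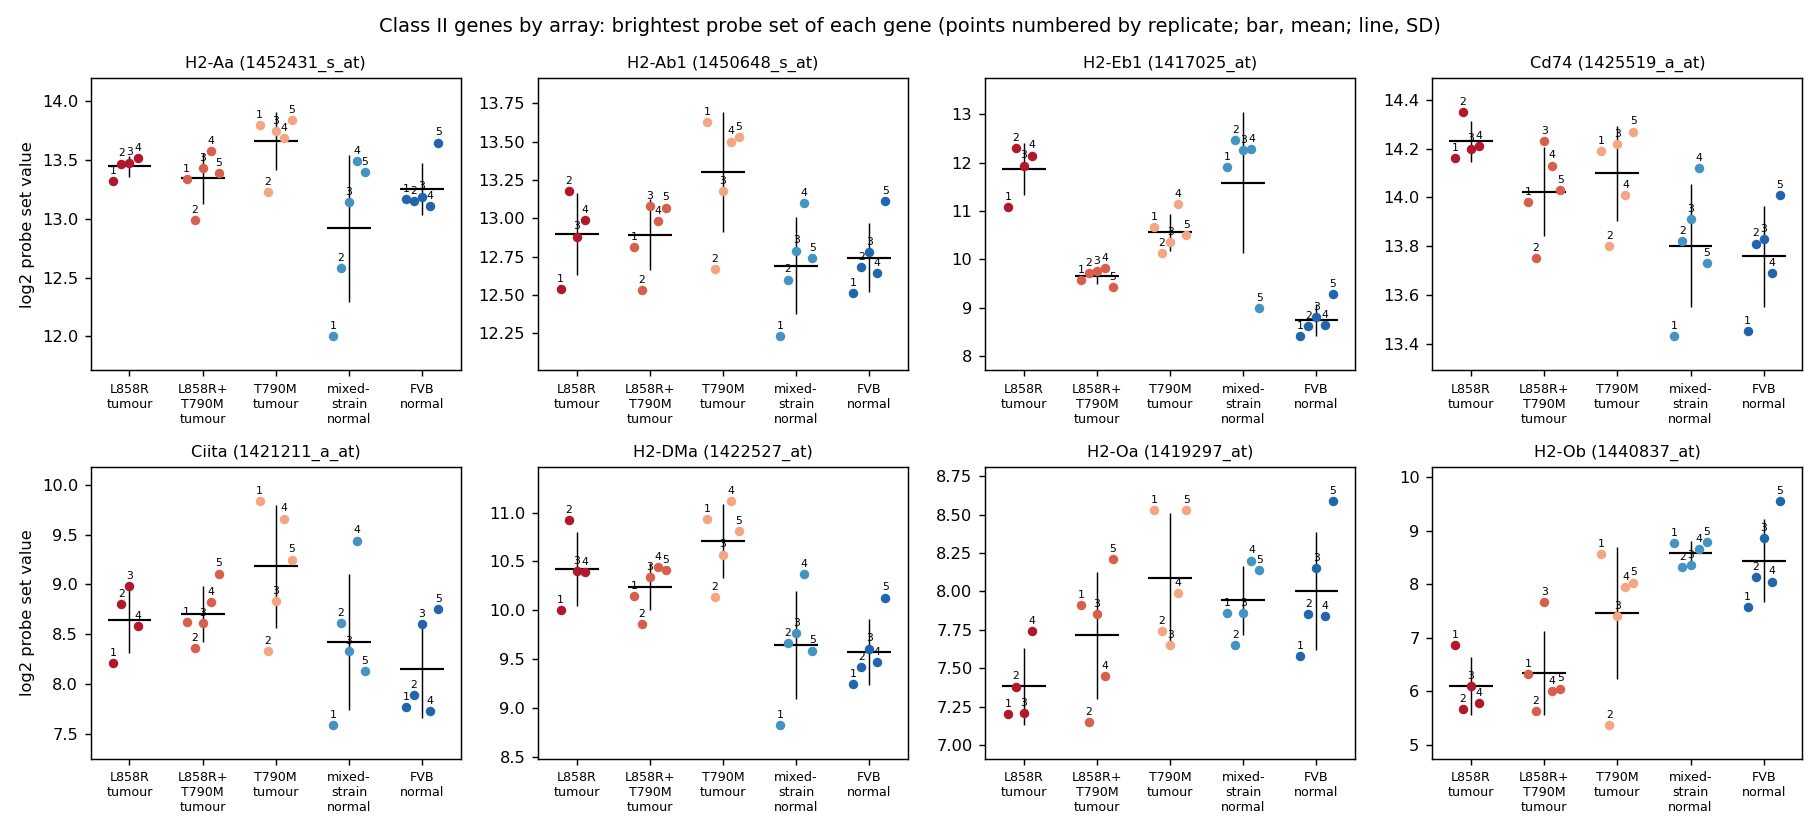
Log2 value (vertical axis) of the brightest probe set of each of the 8 measured class II genes in every array, by group; points carry their replicate number, bars are means and vertical lines are SD. T790M replicate 2 is the lowest of its group in every panel but H2-Oa, and FVB normal replicate 5 is the highest of its group in all 8 panels.

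H2-Eb1 had the largest difference between the normal groups of all 16 member probe sets. Its probe set 1417025_at read 11.09, 12.30, 11.94 and 12.15 in L858R tumours, against 11.91, 12.47, 12.27, 12.29 and 9.0 in mixed-strain normals. It read 9.57, 9.71, 9.76, 9.82 and 9.42 in L858R+T790M tumours and 10.67, 10.13, 10.36, 11.15 and 10.51 in T790M tumours, against 8.41, 8.62, 8.81, 8.64 and 9.29 in FVB normals. Mixed-strain normal replicate 5 stood with the FVB normals, and the other 4 stood with the L858R tumours.

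The FVB normals did not overlap with either tumour group of the label FVB. H2-Eb1 was higher in T790M tumours by 1.81 ± 0.44, or 3.51-fold (adjusted p = 0.00257), and differed by 0.90 ± 0.44 (0.128) in L858R+T790M tumours. The L858R+T790M value was called without mixed-strain normal replicate 5 (adjusted p = 0.00205) or with only the groups compared in the fit (0.000943), since that array enters the shared estimate of the spread. In L858R tumours H2-Eb1 differed from mixed-strain normals by 0.28 ± 0.46 (0.671), and by -0.37 (0.237) without that replicate. With all 10 normal lungs as 1 group the difference was 0.39 (0.669) in T790M tumours and 1.70 (0.0481) in L858R tumours.

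The groups of normal lungs were compared directly. They differ in strain label and also in array title (Normal and control). An effect of strain therefore cannot be told apart from another difference between these sets. H2-Eb1 was higher in mixed-strain normals than in FVB normals by 2.83 ± 0.44, or 7.13-fold (adjusted p = 0.00173), and was the only member called among 16, where 2.48% of all probe sets were called and 1.25% were called higher. Without mixed-strain normal replicate 5 the difference was 3.48 (adjusted p = 3.77e-09). The members' median difference was 0.06, against -0.03 over all probe sets, and 3 of 16 had an unadjusted p under 0.05. The groups overlapped for every member probe set, so 0 members had groups without overlap, beside 11.0% of all probe sets, and for H2-Eb1 replicate 5 was the one mixed-strain normal below the highest FVB normal.

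The other members with an unadjusted p under 0.05 between the normal lungs were a pair of H2-Aa probe sets that behaved unlike the brightest one. Probe set 1443783_x_at read 9.14, 9.36, 9.98, 7.52 and 7.42 in mixed-strain normals, against 7.19, 7.01, 7.05, 7.05 and 7.84 in FVB normals. Mixed-strain normal replicates 4 and 5 fell within the FVB range and the other 3 stood above it. The difference was 1.46 ± 0.51 (adjusted p = 0.132), and that of 1438858_x_at was 0.80 ± 0.23 (0.0695). Without L858R replicate 2 both were called (adjusted p = 0.0344 and 0.0325), and 1438858_x_at was also called without L858R replicate 1 (0.0482) or mixed-strain normal replicate 5 (0.0463).

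In L858R tumours 1443783_x_at of H2-Aa read 7.47, 11.16, 7.92 and 8.54, so replicate 2 was far above the rest of its group. Over the 24 arrays this probe set and 1438858_x_at ran together (Pearson r = 0.936), while neither followed 1452431_s_at (r = -0.087 and -0.147). The 3 probe sets of H2-Ab1 correlated with each other at 0.916 to 0.959 and the 3 of Ciita at 0.823 to 0.968. These correlations share their arrays, which differ by group, and are descriptions. The suffix _x marks a probe set whose probes may also bind other transcripts. Whether sequence differences between strains move these H2-Aa and H2-Eb1 readings was not tested, and the labels give no H2 haplotype.

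**Figure D3:**
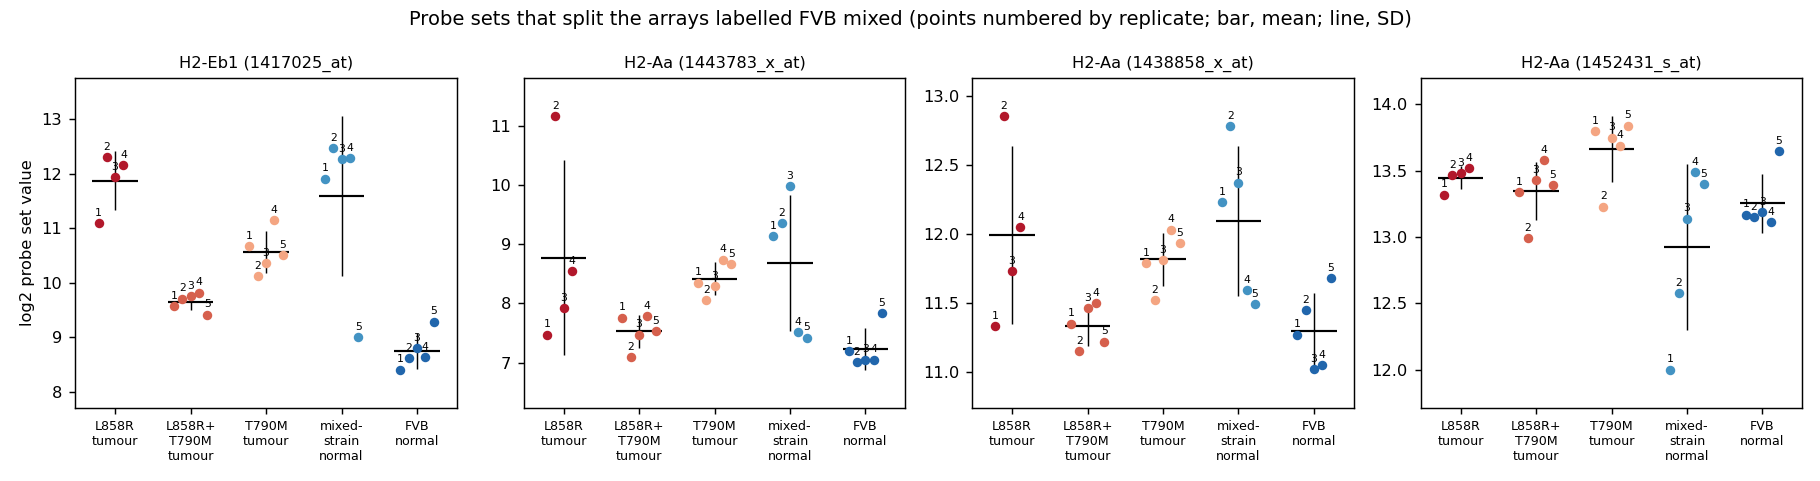
Log2 value (vertical axis) by array and group for H2-Eb1 and 3 probe sets of H2-Aa; points carry their replicate number, bars are means and vertical lines are SD. Mixed-strain normal replicate 5 reads 9.0 for H2-Eb1 against 11.91 or above in its group, and replicates 4 and 5 read low for H2-Aa 1443783_x_at but high for 1452431_s_at.

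Cd74, the invariant chain, read 14.16, 14.35, 14.20 and 14.21 in L858R tumours, against 13.43, 13.82, 13.91, 14.12 and 13.73 in mixed-strain normals. All L858R tumours stood above all mixed-strain normals. It read 13.98, 13.75, 14.23, 14.13 and 14.03 in L858R+T790M tumours and 14.19, 13.80, 14.22, 14.01 and 14.27 in T790M tumours, against 13.45, 13.81, 13.83, 13.69 and 14.01 in FVB normals. Both of these tumour groups overlapped the FVB normals. Cd74 was higher by 0.43 ± 0.13 (adjusted p = 0.00979) in L858R tumours and by 0.34 ± 0.12 (0.0291) in T790M tumours, and differed by 0.27 ± 0.12 (0.0948) in L858R+T790M tumours.

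The Cd74 call in T790M tumours was lost without FVB normal replicate 1 or 4 or T790M replicate 1, 3 or 5 (adjusted p = 0.0588 to 0.0961) and after quantile normalization again (0.25, 0.134). For L858R+T790M tumours Cd74 was called when either FVB normal replicate 5 (0.0488) or L858R+T790M replicate 2 (0.042) was dropped, and with arrays centred on their medians (0.31, 0.0402).

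Ciita, the coactivator, was higher in T790M tumours by 2 of its 3 probe sets. The probe set 1421210_at read 9.72, 8.28, 8.82, 9.37 and 9.24 in T790M tumours, against 7.81, 7.99, 8.55, 8.0 and 8.64 in FVB normals. Again T790M replicate 2 lay within the normals and the other 4 lay above them. The difference was 0.89 ± 0.25, or 1.85-fold (adjusted p = 0.0079), and for 1421211_a_at it was 1.03 ± 0.30, or 2.05-fold (0.0103). The dimmest Ciita probe set, 1447075_at, differed by 0.52 ± 0.31 (0.207).

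In L858R+T790M tumours Ciita 1421210_at read 8.74, 8.42, 8.71, 8.82 and 9.19 and differed from FVB normals by 0.58 ± 0.25 (adjusted p = 0.0851). It read 8.32, 8.69, 8.72 and 8.35 in L858R tumours, against 7.54, 8.46, 8.18, 9.01 and 8.17 in mixed-strain normals, a difference of 0.25 ± 0.27 (0.494). Both tumour groups overlapped their normals. For L858R+T790M tumours it was called with all normal lungs as 1 group (0.54, 0.0483) and with only the groups compared in the fit (0.0318).

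H2-DMa, the alpha chain of the peptide exchange factor H2-DM, was the only member called higher in all 3 tumour groups, and by both of its probe sets. The brighter, 1422527_at, read 10.00, 10.92, 10.40 and 10.39 in L858R tumours, against 8.83, 9.67, 9.77, 10.37 and 9.59 in mixed-strain normals. It read 10.15, 9.86, 10.34, 10.44 and 10.41 in L858R+T790M tumours and 10.93, 10.14, 10.57, 11.12 and 10.81 in T790M tumours, against 9.25, 9.42, 9.61, 9.47 and 10.13 in FVB normals. All T790M tumours stood above the FVB normals, replicate 2 (10.14) just above FVB normal replicate 5 (10.13), while the other tumour groups overlapped theirs.

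The differences of H2-DMa 1422527_at were 0.78 ± 0.25 (adjusted p = 0.0154) in L858R tumours, 0.66 ± 0.23 (0.0329) in L858R+T790M tumours and 1.14 ± 0.23 (0.000575) in T790M tumours. For the other probe set, 1459872_x_at, they were 0.58 ± 0.12 (0.000623), 0.52 ± 0.11 (0.00129) and 0.80 ± 0.11 (1.5e-05) in the same order, with no overlap between tumours and normals in any of the 3. In L858R tumours the first probe set lost its call without L858R replicate 2 (0.62, 0.0722) or mixed-strain normal replicate 1 (0.58, 0.053). For L858R+T790M tumours the call was lost without FVB normal replicate 1, 2, 3 or 4 or L858R+T790M replicate 3, 4 or 5 (adjusted p = 0.0523 to 0.0846).

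In L858R tumours 2 member probe sets lay higher than the normals without overlap and 1 lower, beside 16.7% and 14.7% of all probe sets. Without overlap, 2 lay higher in L858R+T790M tumours, beside 13.6%, and 4 in T790M tumours, beside 14.1%. The beta chain H2-DMb1 could be read only through the probe sets it shares with H2-DMb2. Probe set 1418638_at of this pair was higher by 1.38 ± 0.23 (adjusted p = 6e-05) in L858R tumours, 1.24 ± 0.22 (0.000134) in L858R+T790M tumours and 1.53 ± 0.22 (1.38e-05) in T790M tumours. The other shared probe set, 1449580_s_at, was higher by 1.23 ± 0.23, 1.05 ± 0.22 and 1.39 ± 0.22 in the same order, with adjusted p of 0.000214, 0.000706 and 4.13e-05. H2-DMb2 on its own probe set 1419744_at, the brightest of 3, was called higher in T790M tumours (1.17 ± 0.32, adjusted p = 0.00617), with 0.75 ± 0.34 (0.0843) in L858R tumours and 0.01 ± 0.32 (0.984) in L858R+T790M tumours. Its 2 dimmer probe sets gave other calls. Probe set 1443686_at was called higher in L858R tumours (1.28 ± 0.32, adjusted p = 0.00321), with 0.14 ± 0.30 (0.778) in L858R+T790M tumours and 0.50 ± 0.30 (0.215) in T790M tumours. Probe set 1443687_x_at was likewise called in L858R tumours (0.93 ± 0.29, adjusted p = 0.0153), with 0.15 ± 0.28 (0.732) in L858R+T790M tumours and 0.64 ± 0.28 (0.0779) in T790M tumours. The probe sets of H2-DMb2 therefore disagreed on the tumour group in which the gene was called, and all 9 differences were positive. Between mixed-strain and FVB normals 1443686_at differed by 0.97 ± 0.30 (adjusted p = 0.0896) and 1443687_x_at by 0.92 ± 0.28 (0.0742), against 0.04 ± 0.32 (0.969) for 1419744_at. On 1443686_at mixed-strain normal replicate 5 read 6.48, within the FVB normals (6.18 to 6.78), while the rest of its group read 7.18 to 7.82. In L858R tumours 1419744_at was called without L858R replicate 1 (1.14, 0.00561), and 1443687_x_at lost its call when mixed-strain normal 5 or L858R tumour 2 or 4 was dropped (adjusted p = 0.0515 to 0.0677). In T790M tumours 1443687_x_at was called without T790M replicate 2 (0.82, 0.0252) or L858R replicate 1 (0.64, 0.0309).

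H2-Oa and H2-Ob form H2-O, the partner that restrains H2-DM and is best known from B cells. H2-Ob read 6.86, 5.67, 6.10 and 5.78 in L858R tumours, against 8.77, 8.32, 8.36, 8.65 and 8.79 in mixed-strain normals. It read 6.32, 5.63, 7.67, 6.01 and 6.05 in L858R+T790M tumours and 8.56, 5.37, 7.40, 7.94 and 8.03 in T790M tumours, against 7.58, 8.14, 8.86, 8.05 and 9.56 in FVB normals. L858R tumours lay below all their normals. Of the L858R+T790M tumours, replicate 3 alone reached into the range of the FVB normals, and of the T790M tumours replicates 1, 4 and 5 lay within it, replicate 3 just below it and replicate 2 lowest by far.

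H2-Ob was lower by 5.56-fold in L858R tumours (log2 difference -2.48 ± 0.50, adjusted p = 0.000428) and by 4.29-fold in L858R+T790M tumours (-2.10 ± 0.47, 0.0014). In T790M tumours the difference was -0.98 ± 0.47 (0.112), and it was called without T790M replicate 1 (-1.25, 0.0451) and with all normal lungs as 1 group (-1.05, 0.0395). Without T790M replicate 2 it was -0.46 (0.389). The shared probe set 1422201_at, which reads Gm20506 or H2-Ob, differed by -0.47 ± 0.11 (0.00214), -0.31 ± 0.11 (0.0299) and -0.10 ± 0.11 (0.496) in L858R, L858R+T790M and T790M tumours. Its call in L858R+T790M tumours was lost without replicate 1, 4 or 5 of that group or FVB normal replicate 3 or 5 (adjusted p = 0.0582 to 0.0933).

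H2-Oa differed by -0.56 ± 0.22 (adjusted p = 0.0546) in L858R tumours, -0.29 ± 0.21 (0.337) in L858R+T790M tumours and 0.09 ± 0.21 (0.793) in T790M tumours, with tumours overlapping normals in each. It read 7.20, 7.38, 7.21 and 7.74 in L858R tumours, against 7.86, 7.65, 7.86, 8.20 and 8.14 in mixed-strain normals. The L858R value was called when any 1 of 8 arrays was dropped, namely replicate 4 of that group, mixed-strain normal 2, FVB normal 5, L858R+T790M 2 and 5 and T790M 1, 3 and 5 (adjusted p = 0.0339 to 0.0496), with only the groups compared in the fit (0.0109), with all normal lungs as 1 group (-0.59, 0.0173) and without the dimmest probe sets (0.0472).

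The tumour genotypes were compared with each other. L858R+T790M tumours had 0 of 16 members called against T790M tumours in limma's test, where 1.15% of all probe sets were called. Of the 16, 15 had a negative difference, 5 had an unadjusted p under 0.05, and the median was -0.44, against 0.02 over all probe sets. Groups without overlap were seen for 3 members, all lower in L858R+T790M tumours, beside 1.10% of all probe sets in that direction. These were H2-Eb1 (-0.91 ± 0.44, adjusted p = 0.322) and the H2-Aa probe sets 1438858_x_at (-0.48 ± 0.23, 0.331) and 1443783_x_at (-0.89 ± 0.51, 0.421). H2-Eb1 was called without mixed-strain normal replicate 5 (-0.91, 0.0401), and H2-Ob without T790M replicate 2 (-1.65, 0.0271, against -1.12 ± 0.47 and 0.244 with all arrays).

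L858R tumours carry another strain label, so each tumour group was first set against its own normals. Against L858R+T790M tumours on that footing, 0 of 16 members were called, beside 0.171% of all probe sets, 0 had an unadjusted p under 0.05, and the median was -0.04. Against T790M tumours 0 of 16 were called, beside 0.411%, 3 had an unadjusted p under 0.05, 14 of 16 differences were negative, and the median was -0.46. The lowest was that of H2-Eb1 (-1.53 ± 0.64, adjusted p = 0.267), which was called without mixed-strain normal replicate 5 (-2.18, 0.00293). The comparisons with FVB normals share those arrays, so their values for the members stand side by side and are not independent.

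Genes that make peptides or trim Cd74 were followed as a list of 15 named lysosomal and editing genes, of which 14 were measured, each by its brightest probe set. In L858R tumours 7 rose and 2 fell, in L858R+T790M tumours 6 rose and 2 fell, and in T790M tumours 5 rose and 2 fell. Over all 18193 genes, the shares called higher and lower were 22.8% and 17.8%, 19.4% and 15.6%, and 21.3% and 17.4% in the same comparisons. The list medians were 0.46, 0.285 and 0.16, against 0.05, 0.03 and 0 over all genes. The cysteine protease Ctsh rose most, by 1.81 ± 0.10 in L858R, 1.40 ± 0.10 in L858R+T790M and 1.01 ± 0.10 in T790M tumours (highest adjusted p = 1.5e-07).

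Ctss, the cathepsin known to trim the invariant chain, rose in L858R tumours (1.01 ± 0.25, adjusted p = 0.0024), with 0.37 ± 0.23 (0.26) in L858R+T790M and 0.14 ± 0.23 (0.69) in T790M tumours. Ifi30, the lysosomal thiol reductase, rose by 0.97 ± 0.15, 0.41 ± 0.14 and 0.63 ± 0.14 in L858R, L858R+T790M and T790M tumours (highest adjusted p = 0.033). The cathepsin inhibitor Cst3 fell in all 3, by 0.72, 0.75 and 0.53 on the log2 scale, and so did Sppl2a, the protease that clears the last Cd74 stub, by 0.33, 0.28 and 0.25.

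Transcription regulators of the class II promoters were followed as a list with 18 measured genes. In L858R tumours 3 rose and 7 fell, in L858R+T790M tumours 2 rose and 3 fell, and in T790M tumours 4 rose and 2 fell. Of all genes, 22.8%, 19.4% and 21.3% rose and 17.8%, 15.6% and 17.4% fell in the same order. The regulator counts in L858R+T790M and T790M tumours lay near or below those shares. Rfx5, a subunit of the X box factor, rose by 0.44 ± 0.13 (adjusted p = 0.015) in L858R+T790M tumours and 0.47 ± 0.13 (0.0084) in T790M tumours, with 0.13 ± 0.14 (0.49) in L858R tumours. Its partner Rfxank fell in L858R tumours (-0.24 ± 0.09, 0.045) and L858R+T790M tumours (-0.25 ± 0.09, 0.03), and Rfxap rose in T790M tumours (0.29 ± 0.10, 0.031). Prdm1, a known repressor of Ciita in plasma cells, fell by 1.01, 0.77 and 0.80 on the log2 scale in L858R, L858R+T790M and T790M tumours. The count in L858R tumours was 6 without L858R replicate 2. For L858R+T790M tumours it was 3 without FVB normal replicate 4 and 8 without L858R+T790M replicate 5, and in T790M tumours it was 3 without FVB normal replicate 2, 3 or 5 or T790M replicate 4.

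The costimulatory list of 8 genes had 0 higher and 2 lower in each tumour group. The shares of all genes called lower were 17.8%, 15.6% and 17.4% in L858R, L858R+T790M and T790M tumours, and those called higher 22.8%, 19.4% and 21.3%. Icosl, the ligand of the T cell receptor Icos, was lower in all 3 (-1.0 ± 0.12, -0.59 ± 0.12 and -0.54 ± 0.12 in L858R, L858R+T790M and T790M tumours). Cd40 was lower in L858R tumours (-1.28 ± 0.27, adjusted p = 0.00077) and T790M tumours (-0.88 ± 0.26, 0.01), and Cd83 in L858R+T790M tumours (-0.62 ± 0.17, 0.0074). Without L858R+T790M replicate 5, 4 were lower in that group. H2-Ea, the alpha chain that pairs with H2-Eb1, was called higher in L858R tumours (0.53 ± 0.19, adjusted p = 0.0324), a call lost when replicate 3 or 4 of that group or replicate 1, 2, 3 or 5 of the mixed-strain normals was dropped. It differed by 0.08 ± 0.18 (0.788) in L858R+T790M tumours and 0.43 ± 0.18 (0.0671) in T790M tumours, and the T790M value was called without T790M replicate 2, FVB normal replicate 5 or L858R replicate 2 (0.0186 to 0.0431). Neither of its other probe sets was called in any tumour group with all arrays (adjusted p = 0.0905 to 0.947), and 1422892_s_at was called in L858R tumours without L858R replicate 2 (1.25, 0.00702) or mixed-strain normal replicate 4 (1.09, 0.0223) and in T790M tumours without T790M replicate 2 (0.98, 0.0431) or L858R replicate 2 (0.78, 0.0433). H2-Eb2 differed by -0.04 ± 0.12, -0.03 ± 0.11 and 0.07 ± 0.11.

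Interferon gamma transcript and the target genes Cxcl9 and Gbp2 differed widely among the L858R+T790M tumours and were highest in replicate 5. Ifng read 5.05, 4.07, 3.95, 4.32 and 7.13 in L858R+T790M tumours, against 4.06 to 4.67 in FVB normals. Replicate 5 stood clear of the normals, replicate 1 lay just above them, and the other 3 lay near them. All Ifng values but that of replicate 5 were low for these arrays, whose lowest value was 3.08 and lowest median 7.21. The targets Cxcl9, a T cell chemokine, and Gbp2, a guanylate binding protein, were chosen after their values were seen. Cxcl9 read 9.62, 6.50, 6.23, 7.88 and 12.37 in the same 5 tumours, and Gbp2 read 12.13, 8.30, 9.48, 9.94 and 13.45.

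Ciita 1421210_at in those tumours spanned 8.42 to 9.19, with replicate 5 highest, and H2-Ab1 1450648_s_at read 13.07 in replicate 5, inside the range of 12.53 to 13.08 of the group. Without replicates 1 and 5, an alternative added after the data were seen, 2 member probe sets were called in L858R+T790M tumours, in place of 3. The interferon gamma list of 16 genes had 4 lower in L858R tumours, 2 higher and 2 lower in L858R+T790M tumours and 2 lower in T790M tumours. Among all genes 17.8%, 15.6% and 17.4% were lower and 22.8%, 19.4% and 21.3% higher in the same order. The mean log2 level of this list ran from 8.47 to 8.82 in L858R tumours, against 8.77 to 9.87 in mixed-strain normals. It ran from 8.33 to 11.60 in L858R+T790M and 8.26 to 10.0 in T790M tumours, against 8.88 to 9.50 in FVB normals. Whether interferon gamma bears on Ciita in these tumours was not tested. Ifngr1 and Jak1, a receptor chain and its kinase, were lower in all 3 tumour groups. Irf1, a transcription factor that interferon gamma induces, was lower in L858R tumours (-0.86 ± 0.32, adjusted p = 0.041), with -0.23 ± 0.31 (0.62) and -0.61 ± 0.31 (0.13) in L858R+T790M and T790M tumours. Dropping replicate 2, 3 or 4 of either the L858R tumours or the mixed-strain normals left 2 called in L858R tumours, and there were 7 without L858R+T790M replicate 5. The T790M count was 4 without L858R+T790M replicate 5 or T790M replicate 1.

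**Figure D4:**
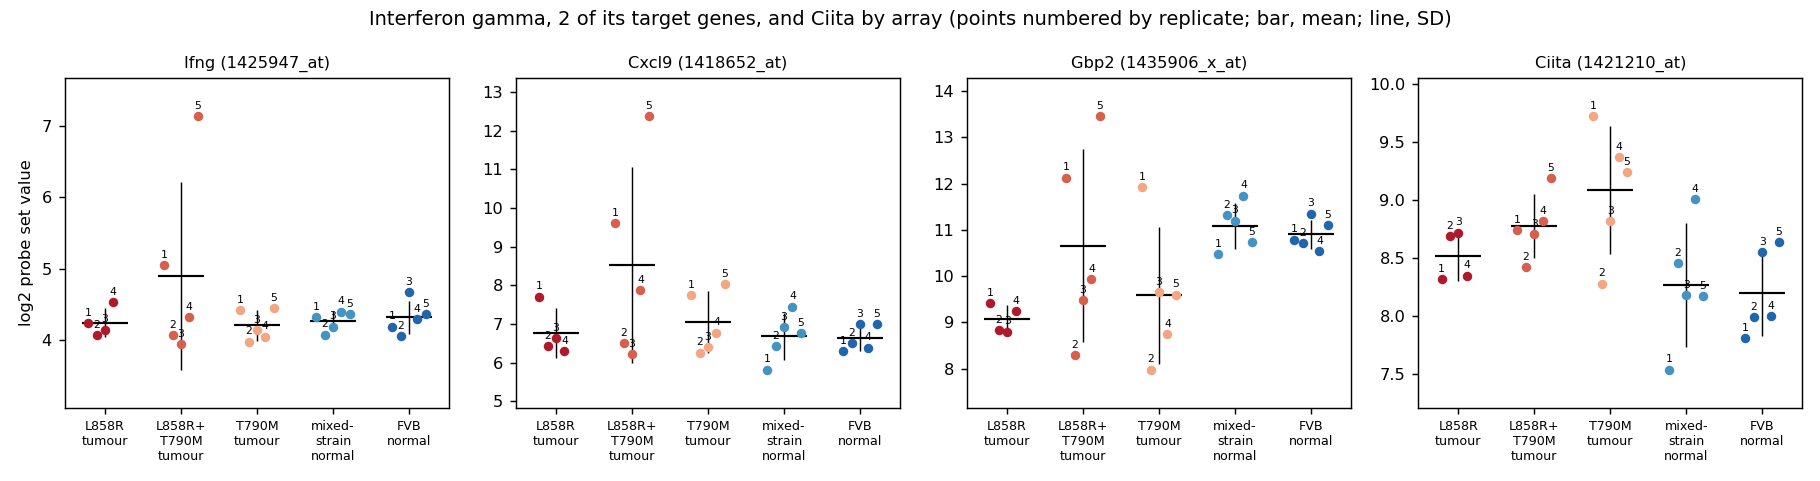
Log2 value (vertical axis) of Ifng, Cxcl9, Gbp2 and Ciita by array and group; points carry their replicate number, bars are means and vertical lines are SD. L858R+T790M replicate 5 reads 7.13 for Ifng and 12.37 for Cxcl9, while its Ciita value of 9.19 lies below that of T790M replicates 1, 4 and 5.

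The class I presentation list of 13 genes had 0 higher and 3 lower in L858R tumours, 0 called in L858R+T790M tumours (2 at an unadjusted p under 0.05) and 1 higher in T790M tumours. For all genes the shares were 22.8%, 19.4% and 21.3% higher and 17.8%, 15.6% and 17.4% lower in the same order. Nlrc5, the class I counterpart of Ciita, was lower in L858R tumours (-1.81 ± 0.67, adjusted p = 0.038), with 0.21 ± 0.63 (0.85) in L858R+T790M and -0.27 ± 0.63 (0.79) in T790M tumours. The L858R count was 1 or 0 without any 1 L858R array or mixed-strain normal replicate 2, 3 or 4. The L858R+T790M count was 1 without its replicate 5. The T790M count was 0 without FVB normal replicate 3 or 5 or T790M replicate 2 or 4, 2 without L858R+T790M replicate 2 or 5, and 3 without T790M replicate 1.

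Markers of cells that carry class II moved in different directions, and their part in the results above was not tested. The B cell list of 13 measured genes had 9 lower in L858R tumours, 8 lower and 1 higher in L858R+T790M tumours and 6 lower in T790M tumours. Beside these stand 17.8%, 15.6% and 17.4% of all genes lower and 22.8%, 19.4% and 21.3% higher in the same order. Without FVB normal replicate 5 the L858R+T790M count was 5 lower. Ms4a1, which encodes CD20, was lower in all 3 tumour groups (-2.76 ± 0.49, -2.65 ± 0.46 and -2.05 ± 0.46 in L858R, L858R+T790M and T790M tumours). By group mean, Ly6d of the same list was higher in L858R+T790M tumours (11.00) and lower in T790M tumours (9.01) than in FVB normals (9.33). Its mean was also higher in L858R tumours (9.20) than in mixed-strain normals (8.28). The mean log2 level of the list ran from 7.11 to 7.36 in L858R tumours, against 8.0 to 8.84 in mixed-strain normals. It ran from 7.17 to 8.31 in L858R+T790M tumours and 6.94 to 8.36 in T790M tumours, against 7.82 to 9.23 in FVB normals. H2-Ob and the median of this list (-0.91 in both) were lower in L858R and L858R+T790M tumours. The T cell (-0.75 and -0.60), dendritic cell (-0.30 and -0.57) and endothelial (-2.66 and -2.37) list medians were negative there too. The direction was thus not particular to B cell genes. In T790M tumours the B cell list median was -0.88, and H2-Ob differed by -0.98 without being called.

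The T cell list of 9 measured genes had 7, 8 and 8 lower and 0 higher in L858R, L858R+T790M and T790M tumours. The dendritic cell list of 14, which shares Itgax with the alveolar macrophage list, had 6, 7 and 3 lower and 1 higher in each. Of all genes, 17.8%, 15.6% and 17.4% were lower and 22.8%, 19.4% and 21.3% higher in the same order. The dendritic list medians were -0.30, -0.57 and -0.05, against 0.05, 0.03 and 0 over all genes, and in T790M tumours 10 of the 14 were not called. Of the dendritic genes called lower, Cd209a, a lectin of monocyte-derived dendritic cells, fell in all 3 (-1.76 ± 0.22, -2.07 ± 0.21 and -1.63 ± 0.21). So did Zbtb46, a dendritic cell transcription factor (-0.77 ± 0.10, -0.66 ± 0.09 and -0.54 ± 0.09). The mean level of the dendritic list ran from 8.05 to 8.21 in L858R tumours, against 8.28 to 8.76 in mixed-strain normals. It ran from 7.91 to 8.37 in L858R+T790M tumours and 8.0 to 8.76 in T790M tumours, against 8.45 to 8.75 in FVB normals.

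The alveolar type 2 list of 13 measured genes, which holds Cd74 and H2-Aa, had 10, 9 and 9 higher and 0 lower in L858R, L858R+T790M and T790M tumours. Over all genes 22.8%, 19.4% and 21.3% were higher and 17.8%, 15.6% and 17.4% lower in the same order. The alveolar type 2 list was bright in every array, normal and tumour. Its mean level ran from 13.44 to 13.53 in L858R tumours, against 12.68 to 12.95 in mixed-strain normals. It ran from 13.18 to 13.45 in L858R+T790M tumours and 13.20 to 13.52 in T790M tumours, against 12.80 to 12.85 in FVB normals. Endothelial markers were lower in 12, 12 and 11 of 12.

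The alveolar macrophage list of 11 measured genes had 8 higher and 0 lower in L858R tumours, 2 higher and 1 lower in L858R+T790M tumours and 1 higher and 2 lower in T790M tumours. Shares over all genes were 22.8%, 19.4% and 21.3% higher and 17.8%, 15.6% and 17.4% lower in the same order. Siglecf, a surface lectin of these cells, rose in L858R tumours (2.33 ± 0.40, adjusted p = 8.8e-05), with 0.07 ± 0.38 (0.92) and 0.19 ± 0.38 (0.74) in L858R+T790M and T790M tumours. Without L858R+T790M replicate 2 that group's count was 7. The list of other macrophage markers, with 11 measured, had 3 higher and 2 lower, 0 higher and 2 lower, and 0 higher and 3 lower in L858R, L858R+T790M and T790M tumours. Leaving out single arrays moved the last counts widely, to 1 without FVB normal replicate 2 or 5, 4 without L858R+T790M replicate 4 or T790M replicate 2 and 6 without L858R+T790M replicate 2 in L858R+T790M tumours. In T790M tumours they moved to 1 without FVB normal replicate 2, 0 without FVB normal replicate 5 or T790M replicate 4, and 6 without L858R+T790M replicate 5.

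Over the 24 arrays H2-Ab1, Ciita and H2-DMa ran closest to the mean of the members (Pearson r = 0.955, 0.911 and 0.864), and H2-Eb1 and H2-Ob ran least with it (0.32 and 0.159). Each member is itself part of that mean, which raises its r in advance. Among other genes, which are not part of it, H2-DMb2 (0.787) and the replication gene Mcm6 (0.706) were most like that mean. The values of members and of other genes are therefore not comparable. Clone and predicted gene names were passed over in every ranking of like genes. For Cd74, Rfc2 (0.84), Ctsa (0.829), Lcp1 (0.825), B4galnt1 (0.819), Itgax (0.804) and Gusb (0.801) were most alike. For Ciita they were Snrnp70 (0.761), Kars (0.741), Farsa (0.73), Antkmt (0.712), Rrm1 (0.709) and Mre11a (0.705). These arrays share group differences, so the values were also taken on deviations from the group means.

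On those deviations Ciita was most like Psmb9 (Pearson r = 0.746), H2-M3 (0.717), Psmb8 (0.712), Tap1 (0.708), Cd83 (0.703) and Nlrc5 (0.697). Psmb8 and Psmb9 are immunoproteasome subunits and Tap1 is a peptide transporter of the class I pathway. Cd74 was most like Myo1f (0.763), Stat5a (0.749), Lsp1 (0.741) and Wdfy4 (0.737). H2-Ob, at 0.159 over all arrays, reached 0.644 with the members' mean on the deviations, and H2-Oa 0.719. Both genes are part of that mean.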

How the data were processed

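Each of 24 mouse lung samples was hybridised to 1 array. The authors deposited log2 values per probe set, computed by RMA according to the submitters' processing notes, with a version not given in the sources used here. Arrays hold no counts, so precision is limited by 4 or 5 arrays per group. The 64 control probe sets were left out. The platform annotation gave 1 gene to 34945 probe sets, several to 932 and none to 9160, and symbols were updated by Entrez identifier for 34741.

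Group means were fitted in limma 3.58.1 (R 4.3.3) over all 45037 probe sets and 24 arrays (lmFit with 5 groups and 19 residual degrees of freedom, then eBayes with a mean-variance trend). Two-sided p-values were adjusted by Benjamini-Hochberg within each comparison, and calls used 0.05. Genes of other lists were read by their brightest probe set. The model was tested on simulated data. All members are described; of each list, at most 4 called genes per direction are named, and H2-Ea, H2-Eb2, H2-DMb2, the RFX genes, Ifng, Irf1, Ctss and Ifi30 always. The members and lists were chosen with earlier results of these data known. Alternatives covered scaling, probe set choice, a filter on dim probe sets, weights, variance prior, samples fitted, the normal lungs used, thresholds and each array left out.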

Additional observations from a re-analysis of the deposited data

Results flagged for a closer look

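Each group of 4 or 5 arrays was examined for a far array. An array was flagged when its gap to the nearest other, divided by the range of the group, exceeded Dixon's 95% critical value. Among 95 groups of class II probe set values, 10 such arrays were found, and chance gives about 5% of groups. Mixed-strain normal replicate 5 read 9.0 for H2-Eb1, with the others at 11.91 to 12.47. T790M replicate 2 was low for H2-Ab1 1425477_x_at (12.31, others 13.21 to 13.36), H2-Ab1 1451721_a_at (11.74, others 12.70 to 12.79) and H2-Aa 1452431_s_at (13.23, others 13.69 to 13.84). FVB normal replicate 5 was high for H2-Aa 1435290_x_at (13.30, others 12.71 to 12.78), 1443783_x_at (7.84, others 7.01 to 7.19) and 1452431_s_at (13.65, others 13.11 to 13.19), and for H2-DMa 1459872_x_at (7.88, others 7.50 to 7.58). L858R replicate 1 was low for the probe sets shared by H2-DMb1 and H2-DMb2, with 8.73 on 1418638_at (others 9.54 to 9.69) and 11.45 on 1449580_s_at (others 12.13 to 12.23). Probe sets of 1 gene share their arrays, so these are not independent.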

How the results depend on the processing

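Counts of called class II probe sets were recomputed under each alternative, and no called difference changed its sign. Sign changes of differences not called were not counted. That of H2-Eb1 in L858R tumours is an example (0.28, and -0.37 without mixed-strain normal replicate 5). In L858R tumours the count of 4 became 7 with all normal lungs as 1 group, 8 with the replicate block, 1 with a 2-fold minimum, and 3 to 7 with single arrays left out (7 without mixed-strain normal replicate 4). In L858R+T790M tumours the count of 3 became 5 with only the groups compared, 1 with a 2-fold minimum and 2 to 4 with single arrays left out. In T790M tumours the count of 10 became 5 with 1 probe set per gene (8 tested), 6 at an adjusted p under 0.01, 3 with a 2-fold minimum and 8 to 12 with single arrays left out. L858R+T790M against T790M tumours gave 0 to 1, L858R against T790M tumours 0 to 1, and L858R against L858R+T790M tumours 0 to 0, with single arrays left out. Between the normal lungs the count of 1 became 3 with array weights, 2 with only the groups compared and 1 to 3 with single arrays left out (2 without L858R replicate 1 or mixed-strain normal replicate 5, 3 without L858R replicate 2). Of single probe set results under the alternatives, 6243 stayed on their side of the threshold, 96 passed it newly and 68 no longer passed it. The replicate block moved no other count by over 1.5 times, and it is given only here, since same-numbered arrays did not all correlate above 0.1 in their deviations from group means. Apart from fewer arrays or probe sets where the alternative leaves them out, the cause was not tested. With 4 or 5 arrays per group, differences of the size of the SE cannot be resolved.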
